A study of Arabidopsis thaliana with 10 samples.

Results

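The core cell cycle and replication licensing genes described here are 50 loci, chosen by locus identifier from the 27086 loci of the deposited files. They comprise 7 A-type, 8 B-type and 9 D-type cyclins, 5 cyclin-dependent kinases (CDKs), and 7 KRP inhibitors with SIM and WEE1. The others are 3 E2F factors with RBR, PCNA1 and PCNA2, and MCM2 to MCM7. All 50 were found. The rule uses no expression value, but the list was drawn up with earlier results of these data known. The RNA came from whole Arabidopsis thaliana seedlings of ecotype Col-0 at 10 DAG (days after germination), with 2 libraries for each of 5 genotypes. Besides wild type (WT) these were single mutants of AtBMI1A (atbmi1a) and of AtBMI1B (atbmi1b), their double mutant, labelled strong (atbmi1ab_strong), and a triple mutant whose name adds AtBMI1C (atbmi1abc). The 3 AtBMI1 proteins carry a RING finger and belong to Polycomb repressive complex 1, which is known for silencing developmental genes through ubiquitination of histone H2A. The labels name no allele. They do not say whether the libraries of a genotype are from plants grown apart, so the p-values describe the spread between these libraries, and that spread may be technical.

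Cyclins activate CDKs in turn through the cell cycle: D-type cyclins with CDKA;1 at the entry into the cycle, A-type cyclins mainly during DNA synthesis and the following gap, and B-type cyclins with the plant-specific CDKB kinases at mitosis. CDK activity inactivates the retinoblastoma homologue RBR, which otherwise holds back E2F transcription factors, and E2F targets include the MCM helicase that licenses replication origins and the sliding clamp PCNA. KRP and SIM proteins inhibit CDKs, and many cells of a growing Arabidopsis seedling leave mitosis for endoreduplication, in which DNA is copied without division.

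Levels are in FPKM, a unit that divides the fragments of a gene by its length and by all mapped fragments of the library. A locus was tested when its mean over the 10 libraries was at least 1 FPKM, which held for 19460 loci and for 49 of the 50 genes. CYCD7;1, a D-type cyclin known from the stomatal lineage, stayed below that mean, at 0 to 0.417 FPKM, and was not tested. Fold changes below are differences of log2(FPKM + 1) with their standard error (SE), which understate the change of low genes. A gene is said to rise or fall where the limma p-value, Benjamini-Hochberg adjusted over all tested loci, was under 0.05. All comparisons with WT share the same 2 WT libraries. Libraries of 1 genotype correlated at 0.956 to 0.989 across loci, lowest for the atbmi1a pair, and FPKM sums ranged from 792415.8 to 990294.5. The targeted genes were read first. AtBMI1B fell from 6.34 and 5.86 FPKM in the WT libraries to 0.182 and 0.108 in those labelled atbmi1b, 1.70 and 1.91 in atbmi1ab_strong and 3.89 and 3.64 in atbmi1abc. AtBMI1A did not fall in the libraries labelled atbmi1a: it stood at 26.8 and 33.4 FPKM there against 6.91 and 6.08 in WT, a rise (log2 change 2.05 ± 0.16, adjusted p = 0.000275). It stood at 7.89 and 9.19 in atbmi1ab_strong and 10.3 and 13.7 in atbmi1abc, not below WT, and genotype names below are those of the labels. AT3G23060, which has no symbol in the annotation used here, was read as the third targeted gene. It was at most 0.209 FPKM in WT and the single mutants, 3.42 and 3.22 in atbmi1ab_strong and 3.04 and 4.35 in the libraries labelled atbmi1abc, where it was thus above WT and not below. It passed the filter only through those 2 genotypes, so its difference is given as values.

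The labelled seedling tissue was checked against marker genes. The summed FPKM of 7 green leaf genes was 56990 to 66710 in WT, 42620 to 44810 in atbmi1a, 36650 to 39480 in atbmi1b, 1479 to 1611 in atbmi1ab_strong and 1739 to 1865 in atbmi1abc. All 7 fell in the double and in the triple mutant, beside 32.6% and 37.7% of all tested loci. In atbmi1a 1 of the 7 rose and 3 fell, beside 17.0% and 18.4% of all loci. In atbmi1b 0 rose and 3 fell, beside 21.3% and 24.1%. Their median log2 fold changes there were -0.02 and -0.21. RBCS1A stood at 14842 and 15398 FPKM in WT, 14753 and 15030 in atbmi1a, and 15209 and 15983 in atbmi1b. LHCB1.3 stood at 21014 and 26011, 11141 and 12196, and 8306 and 8844, in the same order. The 9 seed storage genes summed to 59.45 to 67.7 in WT, 79490 to 94250 in atbmi1ab_strong (with CRA1 and CRU3 listed at 0) and 103400 to 124600 in atbmi1abc. The 8 stem cell and meristem genes summed to 15.29 to 17.74 in WT (WUS listed at 0), 21.04 to 21.19 in atbmi1b, 107.8 to 108.4 in atbmi1ab_strong and 99.96 to 121.6 in atbmi1abc. Among the 6 of these that were tested, 5 rose in each of the double and the triple mutant, beside 31.8% and 36.3% of all loci. WUS and CLV3 were not tested, and PLT1 and PLT2 passed the filter only through their levels in these mutants. AIL6 and WOX5 made up most of the sum in both, and single genes differed between them: WOX5 stood at 46.0 and 39.6 FPKM in atbmi1ab_strong and 15.8 and 28.2 in atbmi1abc, and KNAT1 at 10.3 and 11.4 and at 20.3 and 18.8. The 5 root genes summed to 81.85 to 86.57 in WT, 120.0 to 135.2 in atbmi1ab_strong and 97.02 to 105.9 in atbmi1abc. In atbmi1abc 1 of the 5 rose and 4 fell, with a median log2 fold change of -2.37, beside 36.3% and 37.7% of all loci that rose and fell. The one that rose, PIN2, stood at 94.1 and 103.6 FPKM there against 9.31 and 9.67 in WT, while CASP1 went from 40.3 and 38.5 to 0 and 0.131. In atbmi1ab_strong 1 rose and none fell, beside 31.8% and 32.6% of all loci. In atbmi1a, replicate 1 held storage transcripts at 2951 summed FPKM and replicate 2 at 47.12. In RNA of whole seedlings, fewer cells of a type and less RNA per cell cannot be told apart, and the part of this tissue make-up in the results below was not tested.

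In atbmi1a, 7 of the 49 tested cell cycle genes rose and 3 fell, where 17.0% of all tested loci rose and 18.4% fell (35.3% called in either direction). In atbmi1b, 14 rose and 4 fell, beside 21.3% and 24.1% of all loci (45.4% in all). In atbmi1ab_strong, 8 rose and 12 fell, beside 31.8% and 32.6%, so that the called genes made up 40.8% of the list and 64.4% of all loci. The triple mutant had 24 genes up and 9 down, beside 36.3% and 37.7% of all loci (74.0% in all). Set directly against atbmi1ab_strong it had 23 up and 2 down, beside 32.1% and 25.2% (57.3% in all). CYCA2;1 is counted as up in atbmi1ab_strong, in atbmi1abc and between them. It passed the filter only through its level in atbmi1abc. The median log2 fold change of the list against WT was 0.27 in atbmi1a, 0.19 in atbmi1b, 0.06 in atbmi1ab_strong and 0.40 in atbmi1abc, and 0.38 between triple and double mutant. Over all loci these medians were 0.02, -0.01, 0.00, 0.00 and 0.10. KRP4 and SIM were the only genes called in all 4 comparisons with WT, both lower. A further 10 genes were called in none of them, and no gene was called higher in one and lower in another.

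Single libraries moved some of these counts. Without atbmi1a replicate 2, 11 genes rose and 1 fell in that mutant, and without WT replicate 2 these were 4 and 0. The 4 genes lower in atbmi1b became 2 without WT replicate 2 or without atbmi1b replicate 1. The 8 higher in atbmi1ab_strong became 5 without its replicate 1. The 2 lower in the triple against the double mutant, CYCA2;4 and SIM, became 0 without replicate 1 of either and 1 without atbmi1ab_strong replicate 2. Rescaling the libraries to equal sums after removal of organelle loci moved the median of all loci to 0.14 in atbmi1a and in atbmi1b and to 0.17 in atbmi1ab_strong. The split of higher and lower cell cycle genes then became 10 and 2, 21 and 2, and 11 and 10. Quantile normalization moved the median between triple and double mutant from 0.10 to 0.20.

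**Figure D1:**
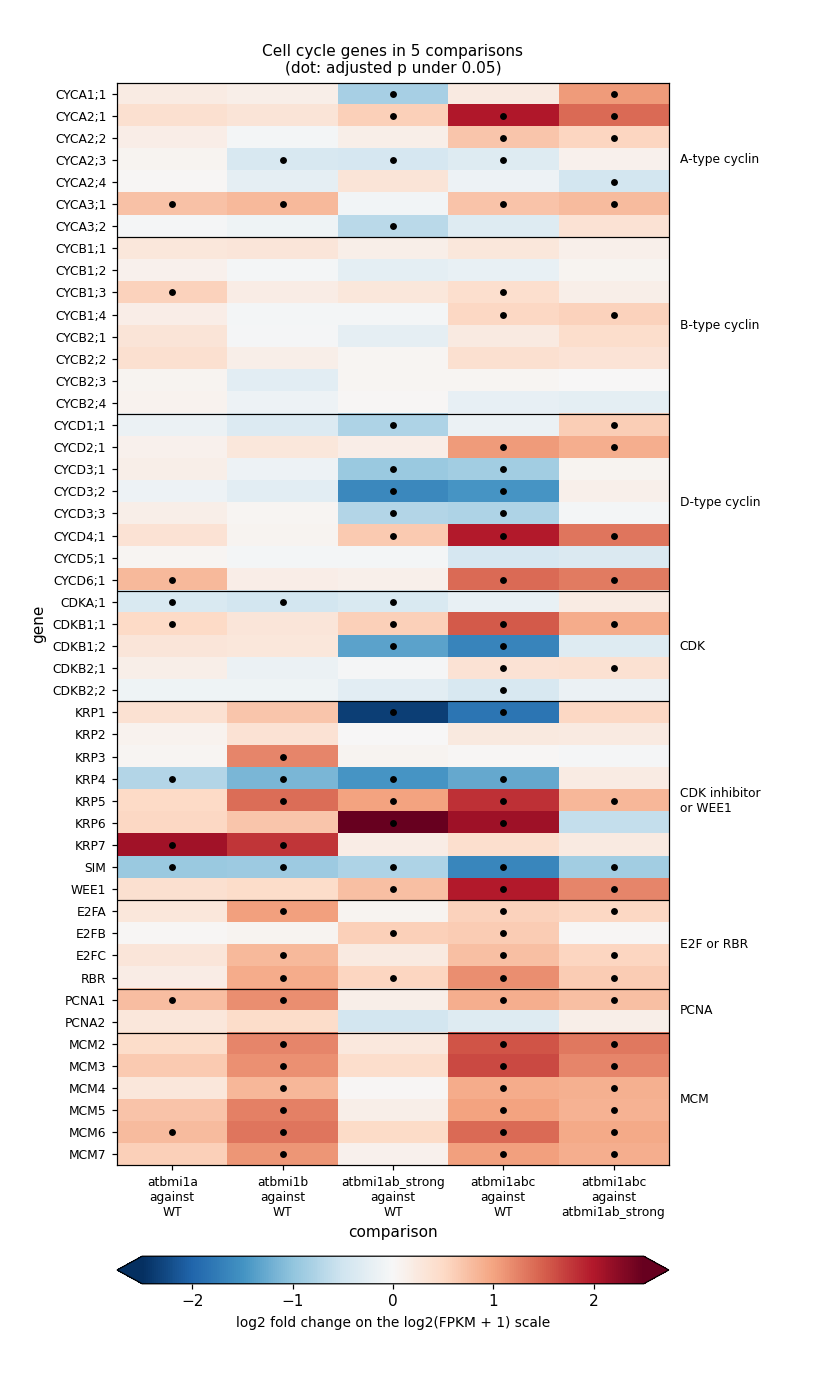
Log2 fold change on the log2(FPKM + 1) scale (colour, clipped at 2.5 either way) of the 49 tested genes (rows, grouped by role) in 5 comparisons (columns), with a dot where the limma adjusted p was under 0.05. CYCA2;1, which carries dots, passed the filter only through its level in atbmi1abc. The MCM rows carry dots in atbmi1b and in atbmi1abc (6 of 6 each) and none in atbmi1ab_strong, where MCM6 and MCM3 were called under some alternatives, while CYCD3;1 to CYCD3;3 are lower in both atbmi1ab_strong and atbmi1abc. Of all tested loci, 45.4% were called in atbmi1b, 64.4% in atbmi1ab_strong and 74.0% in atbmi1abc.

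The 6 genes of the MCM helicase, which is loaded on origins before DNA synthesis, rose together in atbmi1b and in atbmi1abc, each by at least 0.84 on the log2 scale. Of all tested loci, 21.3% rose in atbmi1b and 36.3% in atbmi1abc. In atbmi1ab_strong 64.4% of all loci were called and none of the 6 in the fit reported. MCM6 and MCM3 were called there under some alternatives given below. E2F factors are known to bind TTTCCCGC-type sites, so the 250 bases before each annotated gene start were searched on both strands for 8 words: TTTCCCGC, TTTCCCGG, TTTCGCGC, TTTCGCGG, TTTGCCGC, TTTGCCGG, TTTGGCGC and TTTGGCGG. Such a word lay in 5 of the 6 MCM windows and in 768 of the 27443 windows of all protein-coding genes (2.8%), 7 of the 50 cell cycle genes having one. Besides the MCM genes these were RBR, which rose in atbmi1b, atbmi1ab_strong and atbmi1abc, and CYCD3;3, which fell in atbmi1ab_strong and atbmi1abc. PCNA1, E2FA, E2FC, CYCA3;1 and KRP5 also rose in atbmi1b and atbmi1abc, and their windows held no such word. The 5 MCM windows with a word are shown because the MCM genes moved together. They are read from the RefSeq TAIR10.1 genome 5′ to 3′ on the strand of the gene, ending at the base before the gene start. Capitals mark the words, which read on the opposite strand in MCM3, MCM4 and MCM6.
MCM2 (chr1:16969964-16970213, plus strand): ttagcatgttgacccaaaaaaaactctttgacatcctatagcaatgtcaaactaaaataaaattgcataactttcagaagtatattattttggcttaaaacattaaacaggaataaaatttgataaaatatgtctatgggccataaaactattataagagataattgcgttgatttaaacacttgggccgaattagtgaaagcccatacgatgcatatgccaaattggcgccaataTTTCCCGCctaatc
MCM3 (chr5:18773707-18773956, minus strand): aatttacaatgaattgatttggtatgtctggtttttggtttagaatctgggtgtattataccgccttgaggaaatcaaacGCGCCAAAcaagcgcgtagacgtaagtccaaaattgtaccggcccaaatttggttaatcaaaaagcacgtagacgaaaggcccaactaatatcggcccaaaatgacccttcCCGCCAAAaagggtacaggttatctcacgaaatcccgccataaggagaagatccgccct
MCM4 (chr2:7130730-7130979, minus strand): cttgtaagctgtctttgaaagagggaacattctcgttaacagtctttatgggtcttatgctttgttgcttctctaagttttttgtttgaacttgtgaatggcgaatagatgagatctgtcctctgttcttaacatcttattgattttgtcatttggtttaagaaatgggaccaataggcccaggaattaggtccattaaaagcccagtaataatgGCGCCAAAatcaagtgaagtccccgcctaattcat
MCM5 (chr2:3527501-3527750, minus strand): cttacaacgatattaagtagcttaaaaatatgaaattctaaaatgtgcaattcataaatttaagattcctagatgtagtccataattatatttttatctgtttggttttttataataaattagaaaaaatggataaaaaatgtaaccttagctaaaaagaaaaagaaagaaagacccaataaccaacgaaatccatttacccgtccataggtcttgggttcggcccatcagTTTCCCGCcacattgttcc
MCM6 (chr5:18010668-18010917, minus strand): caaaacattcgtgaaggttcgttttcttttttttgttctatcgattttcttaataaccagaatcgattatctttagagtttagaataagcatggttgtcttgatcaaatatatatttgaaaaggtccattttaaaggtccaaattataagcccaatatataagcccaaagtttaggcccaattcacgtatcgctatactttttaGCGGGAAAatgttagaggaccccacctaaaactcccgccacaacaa
The MCM7 window held none of these words and overlaps the neighbouring gene AT4G02050. A match is a description of the sequence and not a measured binding site.

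MCM2 (AT1G44900) measured 6.11 and 5.18 FPKM in WT, 10.5 and 6.22 in atbmi1a, 15.3 and 13.6 in atbmi1b, 7.22 and 6.61 in atbmi1ab_strong, and 21.9 and 16.0 in atbmi1abc. MCM3 (AT5G46280), another subunit of the ring, measured 6.24 and 4.50 FPKM in WT, 11.3 and 7.10 in atbmi1a, 13.4 and 12.7 in atbmi1b, 8.14 and 6.97 in atbmi1ab_strong, and 23.2 and 15.2 in atbmi1abc. For both genes every atbmi1b and atbmi1abc library lay above every WT and atbmi1ab_strong library, and the higher atbmi1a library, replicate 1, lay between them. MCM5 (AT2G07690) measured 7.18 and 5.68 FPKM in WT, 14.2 and 8.73 in atbmi1a, 17.7 and 15.6 in atbmi1b, 7.55 and 6.79 in atbmi1ab_strong, and 17.5 and 11.0 in atbmi1abc. MCM6 (AT5G44635) measured 3.25 and 2.67 FPKM in WT, 7.16 and 4.77 in atbmi1a, 9.49 and 8.51 in atbmi1b, 4.46 and 4.52 in atbmi1ab_strong, and 11.0 and 8.25 in atbmi1abc. Replicate 1 was the higher library in every genotype for each of these 4 genes, except for MCM6 in atbmi1ab_strong. MCM4 (AT2G16440) measured 6.35 and 6.21 FPKM in WT, 9.58 and 6.44 in atbmi1a, 12.8 and 11.2 in atbmi1b, 7.31 and 5.71 in atbmi1ab_strong, and 14.4 and 11.5 in atbmi1abc. MCM7 (AT4G02060) measured 7.30 and 7.43 FPKM in WT, 15.0 and 9.11 in atbmi1a, 16.8 and 17.2 in atbmi1b, 8.42 and 7.65 in atbmi1ab_strong, and 18.4 and 13.8 in atbmi1abc. Its atbmi1b libraries lay above all WT and atbmi1ab_strong libraries, and the higher atbmi1a library lay between the atbmi1abc pair. Summed over all 6 genes, the libraries held 36.42 and 31.66 FPKM in WT, 67.67 and 42.37 in atbmi1a, 85.47 and 78.8 in atbmi1b, 43.09 and 38.26 in atbmi1ab_strong, and 106.5 and 75.84 in atbmi1abc.

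Against WT, the MCM log2 fold changes in atbmi1b ran from 0.84 (MCM4, limma adjusted p = 0.00984) to 1.34 (MCM6, 0.00119), with a median of 1.19 beside -0.01 over all loci. In atbmi1abc they ran from 0.93 (MCM4, limma adjusted p = 0.00279) to 1.65 (MCM3, 0.000511), with a median of 1.22 beside -0.0045 over all loci. Between the triple and the double mutant all 6 rose again, from 0.87 (MCM5) to 1.32 (MCM2), with a median of 0.93 beside 0.10 over all loci. Of all loci 32.1% rose in that comparison. In atbmi1ab_strong the 6 stood 0.04 to 0.48 from WT. MCM6 was called higher there under 4 alternatives, namely median-ratio scaling, equal sums without organelle loci, the replicate block and the compared groups alone (adjusted p = 0.0270 to 0.0495), and MCM3 under the replicate block (0.0434). Set against the 4 single-mutant libraries instead of WT, MCM2 and MCM4 to MCM7 were lower in the double mutant, at log2 differences of -0.52 to -0.84. In the triple mutant MCM4 to MCM7 were then no longer called. In atbmi1a MCM6 rose (log2 change 0.80 ± 0.20, adjusted p = 0.0169), a call lost without WT replicate 2 or atbmi1a replicate 1 (adjusted p = 0.0960 and 0.0644). The other 5 were not called in atbmi1a in the fit reported. Under the replicate block MCM3, MCM5 and MCM7 were (0.0166 to 0.0457), under equal sums MCM5 and MCM7 (0.0461 and 0.0330), and without atbmi1a replicate 2 MCM2, MCM3, MCM5 and MCM7 (0.00655 to 0.0288). Of the calls in atbmi1b, that of MCM3 was lost without WT replicate 2 (adjusted p = 0.0569), and that of MCM4 without WT replicate 2 or atbmi1b replicate 1 (0.0511 and 0.0655). In atbmi1abc the MCM5 call was lost without WT replicate 2 or atbmi1abc replicate 1 (0.0546 and 0.0545). Between triple and double mutant the MCM5 call was lost without any 1 of 3 libraries (0.0643 to 0.130) and that of MCM7 without atbmi1abc replicate 1 (0.0515).

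**Figure D2:**
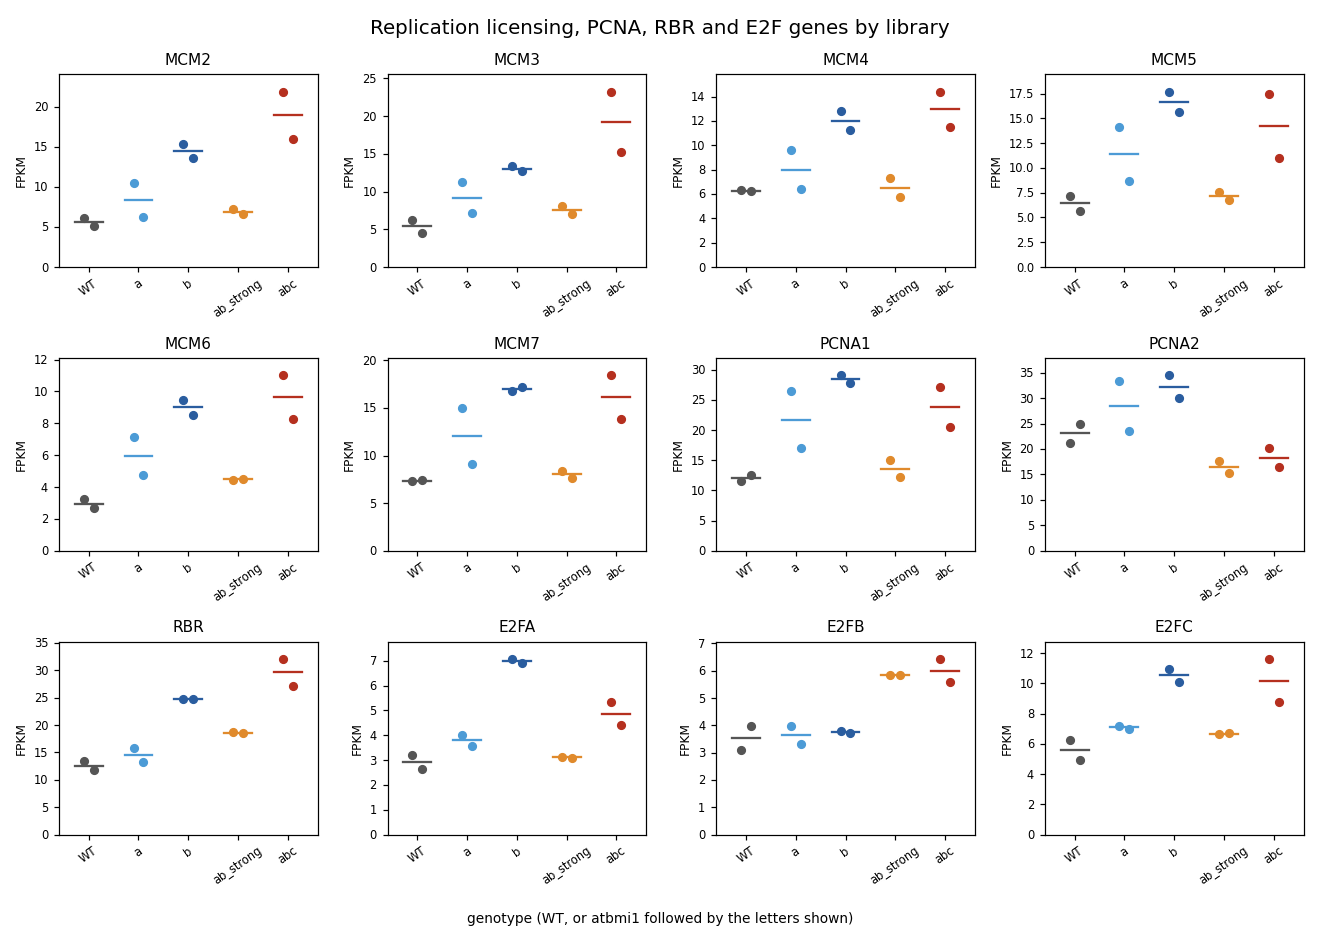
FPKM (y axis, linear from 0) in each library of the 5 genotypes (x axis) for the MCM, PCNA, RBR and E2F genes, with points for the 2 libraries and a bar for their mean. For MCM2 to MCM7 the atbmi1b and atbmi1abc points lie above the WT and atbmi1ab_strong points, and E2FB is instead higher in atbmi1ab_strong and atbmi1abc.

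PCNA1 and PCNA2 encode the sliding clamp that holds DNA polymerase on its template, and their coding sequences were identical at 85.7% of 788 aligned bases. PCNA1 (AT1G07370) measured 11.6 and 12.6 FPKM in WT, 26.5 and 17.0 in atbmi1a, 29.1 and 27.8 in atbmi1b, 15.1 and 12.1 in atbmi1ab_strong, and 27.2 and 20.5 in atbmi1abc. It rose in atbmi1b (log2 change 1.17 ± 0.21, adjusted p = 0.00338) and in atbmi1abc (log2 change 0.91 ± 0.21, adjusted p = 0.00516), with no overlap with WT. Its rise in atbmi1a (log2 change 0.76 ± 0.21, adjusted p = 0.0275) was lost without either WT library or without atbmi1a replicate 1 (adjusted p = 0.0873 to 0.118). It also rose between the double and the triple mutant (log2 change 0.76 ± 0.21, adjusted p = 0.0174), a call lost without atbmi1ab_strong replicate 2 or atbmi1abc replicate 1 (0.102 in both). PCNA2 (AT2G29570) measured 21.2 and 24.9 FPKM in WT, 33.4 and 23.5 in atbmi1a, 34.5 and 30.0 in atbmi1b, 17.6 and 15.4 in atbmi1ab_strong, and 20.3 and 16.4 in atbmi1abc. None of its comparisons with WT was called in the fit reported, with log2 differences from -0.46 in atbmi1ab_strong to 0.47 in atbmi1b. It was called lower in atbmi1ab_strong under the replicate block and with the compared groups alone (adjusted p = 0.0401 and 0.0197), and higher in atbmi1b under equal sums and with the compared groups alone (0.0195 and 0.0341). Against the single mutants it was lower in the double and the triple mutant (0.00210 and 0.00450).

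Other replication genes, a list of 22 origin and fork genes of which 20 were tested, were counted beside the members. Of these, 5 rose in atbmi1a, 12 in atbmi1b, 15 in atbmi1abc and 16 between triple and double mutant, with none lower in these 4 comparisons, and 1 rose and 2 fell in atbmi1ab_strong. The share called was 25% in atbmi1a, 60% in atbmi1b, 15.0% in atbmi1ab_strong, 75% in atbmi1abc and 80.0% between triple and double mutant, beside 35.3%, 45.4%, 64.4%, 74.0% and 57.3% of all loci. Their median log2 fold changes were 0.38 in atbmi1a, 0.82 in atbmi1b, 0.12 in atbmi1ab_strong, 0.97 in atbmi1abc and 0.82 between triple and double mutant. In atbmi1abc the smallest adjusted p were those of FAS2, a subunit of the chromatin assembly factor that follows the fork (log2 change 1.52 ± 0.18, adjusted p = 0.000120), and ORC4, a subunit of the origin recognition complex (log2 change 1.38 ± 0.17, adjusted p = 0.000130). In atbmi1ab_strong RNR2A, a ribonucleotide reductase subunit that supplies deoxynucleotides, rose (log2 change 1.00 ± 0.13, adjusted p = 0.000233). MCM9 fell there (log2 change -0.48 ± 0.16, adjusted p = 0.0308), its call being lost without any 1 of the 4 libraries (adjusted p = 0.0823 to 0.107). E2F words lay in 10 of the 22 windows of this list.

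RBR (AT3G12280), the repressor of E2F, measured 13.4 and 11.8 FPKM in WT, 15.8 and 13.2 in atbmi1a, 24.8 and 24.8 in atbmi1b, 18.7 and 18.6 in atbmi1ab_strong, and 32.0 and 27.2 in atbmi1abc. Its libraries in atbmi1b, atbmi1ab_strong and atbmi1abc all lay above the higher WT library. The gene rose in atbmi1b (log2 change 0.93 ± 0.12, adjusted p = 0.000670) and atbmi1ab_strong (log2 change 0.53 ± 0.12, adjusted p = 0.00533). It also rose in atbmi1abc (log2 change 1.17 ± 0.12, adjusted p = 4.88e-05) and from the double to the triple mutant (log2 change 0.64 ± 0.12, adjusted p = 0.00288). Against the single mutants the double-mutant difference was -0.028, no longer called. E2FA (AT2G36010), an activating E2F, measured 3.19 and 2.66 FPKM in WT, 4.01 and 3.58 in atbmi1a, 7.06 and 6.90 in atbmi1b, 3.14 and 3.07 in atbmi1ab_strong, and 5.34 and 4.40 in atbmi1abc. It rose in atbmi1b (log2 change 1.03 ± 0.13, adjusted p = 0.000619) and atbmi1abc (log2 change 0.58 ± 0.13, adjusted p = 0.00411). E2FC (AT1G47870), known as a repressing E2F, measured 6.23 and 4.96 FPKM in WT, 7.20 and 6.98 in atbmi1a, 11.0 and 10.1 in atbmi1b, 6.63 and 6.72 in atbmi1ab_strong, and 11.6 and 8.78 in atbmi1abc. It rose in the same 2 mutants (log2 change 0.81 ± 0.15, adjusted p = 0.00347 and log2 change 0.76 ± 0.15, adjusted p = 0.00204). E2FB (AT5G22220), the other activating E2F, measured 3.12 and 3.97 FPKM in WT, 3.98 and 3.33 in atbmi1a, 3.78 and 3.74 in atbmi1b, 5.84 and 5.84 in atbmi1ab_strong, and 6.42 and 5.60 in atbmi1abc. It rose in atbmi1ab_strong (log2 change 0.60 ± 0.14, adjusted p = 0.00594) and atbmi1abc (log2 change 0.63 ± 0.14, adjusted p = 0.00357), with no overlap between those libraries and WT, and stood at 0.07 in atbmi1b. No gene of this group was called in atbmi1a. From the double to the triple mutant E2FA (log2 change 0.51 ± 0.13, adjusted p = 0.0114) and E2FC (log2 change 0.53 ± 0.15, adjusted p = 0.0171) rose. The E2FA call was lost without atbmi1ab_strong replicate 2 or atbmi1abc replicate 1 (log2 changes 0.50 and 0.40). The E2FC call was lost without either atbmi1ab_strong library or atbmi1abc replicate 1 (log2 changes 0.35 to 0.54). Equal sums and the compared groups alone lost the E2FC call too (adjusted p = 0.0710 and 0.0513).

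The D-type cyclins, which link hormone and sugar signals to entry into the cycle, moved in opposite directions within the family. CYCD3;1, CYCD3;2 and CYCD3;3, known to sustain division in shoot tissues and to respond to cytokinin, fell in atbmi1ab_strong and atbmi1abc. CYCD3;2 (AT5G67260) measured 63.6 and 83.9 FPKM in WT, 65.3 and 68.9 in atbmi1a, 58.8 and 62.7 in atbmi1b, 25.5 and 21.1 in atbmi1ab_strong, and 24.8 and 26.2 in atbmi1abc. CYCD3;1 (AT4G34160) measured 22.4 and 23.7 FPKM in WT, 25.3 and 26.1 in atbmi1a, 20.6 and 21.3 in atbmi1b, 12.4 and 10.8 in atbmi1ab_strong, and 12.7 and 11.6 in atbmi1abc. For both genes the double- and triple-mutant libraries lay below all 6 libraries of the other genotypes. CYCD3;3 (AT3G50070) measured 18.6 and 18.0 FPKM in WT, 19.1 and 21.7 in atbmi1a, 19.0 and 19.1 in atbmi1b, 11.6 and 9.77 in atbmi1ab_strong, and 10.5 and 10.2 in atbmi1abc. In atbmi1ab_strong the fold changes were -1.61 ± 0.14 for CYCD3;2 (limma adjusted p = 3.03e-05), -0.94 ± 0.10 for CYCD3;1 (7.35e-05) and -0.73 ± 0.11 for CYCD3;3 (0.000541). In atbmi1abc they were -1.48, -0.87 and -0.77, with adjusted p from 3.2e-05 to 0.000281. These calls held under every alternative run, and from the double to the triple mutant the 3 genes differed by -0.04 to 0.13, not called. The 7 green leaf genes fell in the same mutants, and the part of this in the CYCD3 levels was not tested.

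CYCD4;1 (AT5G65420), a D-type cyclin of seed germination and the stomatal lineage, measured 1.44 and 2.52 FPKM in WT, 2.92 and 2.62 in atbmi1a, 2.58 and 1.66 in atbmi1b, 4.11 and 3.19 in atbmi1ab_strong, and 10.8 and 10.5 in atbmi1abc. CYCD6;1 (AT4G03270), known for the formative division of the root ground tissue, measured 2.88 and 2.70 FPKM in WT, 5.34 and 6.01 in atbmi1a, 3.74 and 2.81 in atbmi1b, 2.93 and 3.34 in atbmi1ab_strong, and 8.42 and 9.84 in atbmi1abc. CYCD2;1 (AT2G22490), known to respond to sugar, measured 19.6 and 17.0 FPKM in WT, 20.6 and 18.9 in atbmi1a, 22.5 and 22.5 in atbmi1b, 21.1 and 19.9 in atbmi1ab_strong, and 43.0 and 35.9 in atbmi1abc. All 3 had atbmi1abc libraries above every other library. In atbmi1abc against WT, CYCD4;1 rose by 1.99 on the log2 scale, CYCD6;1 by 1.42 and CYCD2;1 by 1.07 (limma adjusted p = 6.87e-05, 5.43e-05 and 6.08e-05). Against atbmi1ab_strong they rose by 1.33, 1.29 and 0.91 (limma adjusted p = 0.00149, 0.000263 and 0.000411). CYCD6;1 also rose in atbmi1a (log2 change 0.82 ± 0.15, adjusted p = 0.00525). CYCD4;1 rose in atbmi1ab_strong (log2 change 0.66 ± 0.22, adjusted p = 0.0282), a call lost without WT replicate 1 or atbmi1ab_strong replicate 1 (0.171 and 0.149). CYCD1;1 (AT1G70210) measured 8.84 and 11.5 FPKM in WT, 8.35 and 9.71 in atbmi1a, 7.18 and 8.29 in atbmi1b, 5.76 and 5.33 in atbmi1ab_strong, and 8.95 and 9.08 in atbmi1abc. It fell in atbmi1ab_strong (log2 change -0.76 ± 0.14, adjusted p = 0.00211) and rose from there to atbmi1abc (log2 change 0.61 ± 0.14, adjusted p = 0.00780), whose libraries overlap WT. CYCD5;1 (AT4G37630) was not called in any comparison, at 2.83 to 6.24 FPKM.

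**Figure D3:**
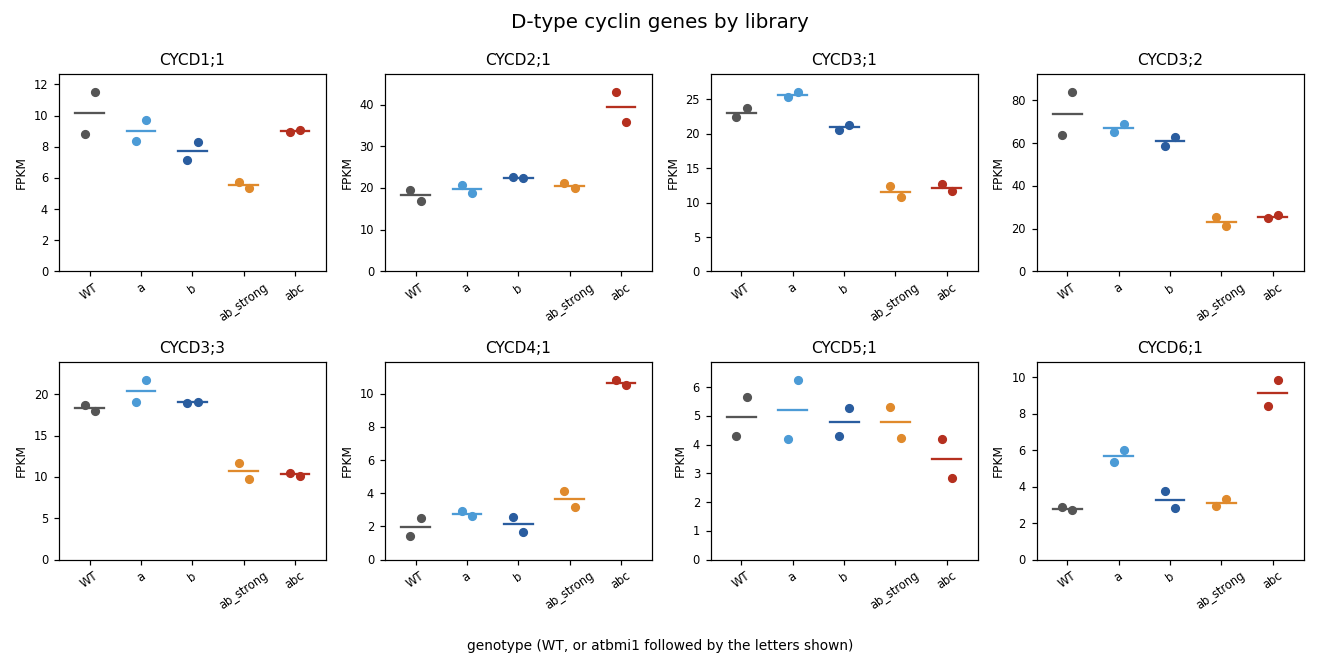
FPKM (y axis, linear from 0) of the 8 tested D-type cyclin genes in each library of the 5 genotypes (x axis), with points for the 2 libraries and a bar for their mean. CYCD3;1, CYCD3;2 and CYCD3;3 are low in atbmi1ab_strong and atbmi1abc, whereas CYCD2;1, CYCD4;1 and CYCD6;1 are highest in atbmi1abc.

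Among the A-type cyclins, CYCA1;1 (AT1G44110), known from mitotic cells, had its low point in the double mutant. It measured 6.78 and 6.28 FPKM in WT, 8.15 and 7.34 in atbmi1a, 7.20 and 7.49 in atbmi1b, 3.18 and 3.30 in atbmi1ab_strong, and 7.79 and 7.84 in atbmi1abc. The double-mutant libraries lay below all others, and the triple-mutant libraries were within the range of the single mutants. It fell in atbmi1ab_strong (log2 change -0.83 ± 0.10, adjusted p = 0.000208) and rose from there to atbmi1abc (log2 change 1.05 ± 0.10, adjusted p = 0.000113), both under every alternative run. CYCA3;2 (AT1G47210), of a subfamily that acts around DNA synthesis, fell in atbmi1ab_strong (log2 change -0.67 ± 0.15, adjusted p = 0.00497) from 17.6 and 17.1 FPKM in WT to 11.6 and 9.53, and measured 15.8 and 11.8 in atbmi1abc. Its relative CYCA3;1 (AT5G43080), identical at 80.0% of 864 aligned coding bases, measured 1.63 and 2.47 FPKM in WT, 4.01 and 4.05 in atbmi1a, 4.04 and 4.57 in atbmi1b, 1.69 and 2.08 in atbmi1ab_strong, and 3.90 and 3.99 in atbmi1abc. It rose in atbmi1a (log2 change 0.73 ± 0.16, adjusted p = 0.0106), atbmi1b (log2 change 0.81 ± 0.16, adjusted p = 0.00463) and atbmi1abc (log2 change 0.71 ± 0.16, adjusted p = 0.00401). It rose from the double to the triple mutant as well (log2 change 0.78 ± 0.16, adjusted p = 0.00417), and without WT replicate 1 the atbmi1a call was lost (0.0527).

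The CYCA2 genes, known with CDKB1;1 to restrain endoreduplication, did not move as 1 group. CYCA2;1 (AT5G25380) measured 0.256 and 0.388 FPKM in WT, 0.712 and 0.761 in atbmi1a, 0.700 and 0.622 in atbmi1b, 1.13 and 0.849 in atbmi1ab_strong, and 5.31 and 3.44 in atbmi1abc. It passed the filter only through its level in atbmi1abc, so its difference there (log2 change 2.0) is given as a value without a test. CYCA2;2 (AT5G11300) rose in atbmi1abc from 1.58 and 1.60 FPKM in WT to 3.90 and 2.61 (log2 change 0.70 ± 0.17, adjusted p = 0.00669). CYCA2;3 (AT1G15570) measured 10.4 and 11.6 FPKM in WT, 11.5 and 11.5 in atbmi1a, 7.59 and 8.59 in atbmi1b, 8.15 and 7.70 in atbmi1ab_strong, and 8.48 and 8.64 in atbmi1abc. It fell in atbmi1b (log2 change -0.40 ± 0.10, adjusted p = 0.0147), atbmi1ab_strong (log2 change -0.42 ± 0.10, adjusted p = 0.00724) and atbmi1abc (log2 change -0.32 ± 0.10, adjusted p = 0.0204). The atbmi1b call was lost without WT replicate 2 or atbmi1b replicate 1 (adjusted p = 0.0861 and 0.0995), the atbmi1abc call without WT replicate 2 or either atbmi1abc library (0.0597 to 0.112). CYCA2;4 (AT1G80370) was not called against WT (in atbmi1ab_strong it was, as higher, under median-ratio scaling and equal sums, adjusted p = 0.0364 and 0.00871), at 4.96 and 5.58 FPKM in WT, 7.06 and 6.63 in atbmi1ab_strong and 4.53 and 4.92 in atbmi1abc. It was lower in the triple than in the double mutant (log2 change -0.46 ± 0.13, adjusted p = 0.0183). This call was lost without any 1 of 3 libraries (log2 changes -0.41 to -0.50) and under quantile normalization (adjusted p = 0.142). The difference of CYCA2;1 in atbmi1ab_strong (log2 change 0.59) is likewise given as a value. Its call there did not hold without either WT library or atbmi1ab_strong replicate 1. The rise of CYCA2;2 from double to triple mutant (log2 change 0.55 ± 0.17, adjusted p = 0.0279) was lost without atbmi1ab_strong replicate 1 or atbmi1abc replicate 1 (log2 changes 0.42 and 0.33). It was also lost under median-ratio scaling, equal sums and the compared groups alone (adjusted p = 0.0523 to 0.0849).

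The B-type cyclins, whose transcripts are known to peak before mitosis, moved little. None of the 8 was called in atbmi1b or, save CYCB1;3 under equal sums (adjusted p = 0.0201), in atbmi1ab_strong. Of the 8, 1 rose in atbmi1a and 2 in atbmi1abc. The shares of all tested loci called were 35.3% in atbmi1a, 45.4% in atbmi1b, 64.4% in atbmi1ab_strong and 74.0% in atbmi1abc. The summed FPKM of the 8 genes lay between 43.86 and 57.15 in all 10 libraries. The mitotic activator word CNAACGG, to which MYB3R factors are known to bind, was searched in the same windows on both strands. It lay in 6 of the 8 B-type cyclin windows and in CYCA1;1, beside 1236 of 27443 protein-coding genes (4.5%). None of the B-type windows held an E2F word and none of the MCM windows the mitotic word, and no word of either search contains one of the other. The window of CYCB1;2 is shown because it held the most copies, 4, in capitals and on both strands.
CYCB1;2 (chr5:1861704-1861953, minus strand): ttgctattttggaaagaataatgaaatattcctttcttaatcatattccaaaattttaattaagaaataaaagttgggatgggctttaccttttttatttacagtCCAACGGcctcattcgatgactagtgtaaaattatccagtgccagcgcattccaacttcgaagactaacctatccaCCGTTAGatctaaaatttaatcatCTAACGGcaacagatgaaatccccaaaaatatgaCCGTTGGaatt
CYCB1;2 (AT5G06150) measured 14.3 and 12.9 FPKM in WT, 15.0 and 14.6 in atbmi1a, 11.9 and 14.4 in atbmi1b, 12.7 and 10.0 in atbmi1ab_strong, and 11.9 and 11.8 in atbmi1abc, and every comparison was within -0.24 and 0.12 on the log2 scale. CYCB1;1 (AT4G37490), much used as a marker of the gap before mitosis, measured 4.18 and 3.70 FPKM in WT, 4.72 and 5.24 in atbmi1a, 4.55 and 5.76 in atbmi1b, 5.37 and 3.74 in atbmi1ab_strong, and 4.92 and 5.10 in atbmi1abc. Neither gene was called in any of the 5 comparisons. CYCB1;3 (AT3G11520) measured 4.21 and 4.19 FPKM in WT, 7.33 and 6.21 in atbmi1a and 6.19 and 5.79 in atbmi1abc. It rose in both mutants (log2 change 0.58 ± 0.12, adjusted p = 0.00952 and log2 change 0.43 ± 0.12, adjusted p = 0.0129). The first call was lost with the compared groups alone (adjusted p = 0.0637), the second without atbmi1abc replicate 1 (log2 change 0.39). Against the single mutants the atbmi1abc difference was 0.043, not called. CYCB1;4 (AT2G26760) rose in atbmi1abc (log2 change 0.52 ± 0.13, adjusted p = 0.00693), from 7.09 and 6.99 to 9.53 and 11.7 FPKM, a call lost without atbmi1abc replicate 2 (0.0503). It also rose against the double mutant (log2 change 0.58 ± 0.13, adjusted p = 0.00675). CYCB2;1 to CYCB2;4 were not called in any of the 5 comparisons, with log2 differences from WT between -0.26 (CYCB2;3 (AT1G20610), atbmi1b) and 0.40 (CYCB2;2 (AT4G35620), atbmi1a, with the same rounded value in atbmi1abc). Alternatives called CYCB2;2 higher in atbmi1abc (equal sums and compared groups alone, 0.0393 and 0.0368), CYCB2;4 lower there (without WT replicate 2, 0.0476), and CYCB2;1 and CYCB2;2 higher between triple and double mutant (quantile normalization, 0.00893 and 0.0281).

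CDKB1;1 and CDKB1;2, near copies of a mitotic kinase identical at 85.4% of 936 aligned coding bases, moved in opposite directions in the double and triple mutants. CDKB1;1 (AT3G54180) measured 7.31 and 6.72 FPKM in WT, 11.3 and 9.31 in atbmi1a, 9.89 and 8.05 in atbmi1b, 11.8 and 10.5 in atbmi1ab_strong, and 24.9 and 19.7 in atbmi1abc. CDKB1;2 (AT2G38620) measured 4.56 and 4.40 FPKM in WT, 5.53 and 6.06 in atbmi1a, 5.35 and 5.93 in atbmi1b, 1.15 and 1.19 in atbmi1ab_strong, and 0.607 and 0.891 in atbmi1abc. Every atbmi1abc library of CDKB1;1 lay above all others, and every double- and triple-mutant library of CDKB1;2 lay below all others. CDKB1;1 rose in atbmi1abc (log2 change 1.53 ± 0.16, adjusted p = 4.56e-05), from the double to the triple mutant (log2 change 0.93 ± 0.16, adjusted p = 0.00165) and in atbmi1ab_strong (log2 change 0.60 ± 0.16, adjusted p = 0.0101). CDKB1;2 fell in atbmi1ab_strong (log2 change -1.34 ± 0.13, adjusted p = 5.48e-05) and atbmi1abc (log2 change -1.65 ± 0.13, adjusted p = 1.08e-05). In atbmi1a and atbmi1b both genes stood above WT, CDKB1;1 by 0.49 and 0.31 and CDKB1;2 by 0.31 and 0.275. There CDKB1;2 was called higher only under equal sums (adjusted p = 0.044 and 0.032). In atbmi1b CDKB1;1 was called higher only under the replicate block (0.041). The rise of CDKB1;1 in atbmi1ab_strong was lost without WT replicate 2 or atbmi1ab_strong replicate 1 (adjusted p = 0.0569 and 0.0623). Its rise in atbmi1a (log2 change 0.49 ± 0.16, adjusted p = 0.0425) was lost without either WT library or atbmi1a replicate 1 (0.0993 to 0.170). Reads shared by near copies, and reads of the genes overlapping them (AT3G54190 and AT2G38630), cannot be told apart where the handling of strand and of multiple matches is not given.

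CDKA;1 (AT3G48750), the kinase that acts with D-type cyclins, was the most abundant of the 5 CDKs per length. It measured 43.5 and 46.5 FPKM in WT, 34.4 and 34.3 in atbmi1a, 32.9 and 32.3 in atbmi1b, 37.2 and 31.2 in atbmi1ab_strong, and 39.7 and 39.6 in atbmi1abc. It fell in atbmi1a (log2 change -0.38 ± 0.09, adjusted p = 0.0179), atbmi1b (log2 change -0.45 ± 0.09, adjusted p = 0.00610) and atbmi1ab_strong (log2 change -0.39 ± 0.09, adjusted p = 0.00726). All 3 calls were lost when the libraries were rescaled to equal sums without organelle loci (adjusted p = 0.0600 to 0.0967), and that in atbmi1a also without WT replicate 2 (0.0994). CDKB2;1 (AT1G76540) rose in atbmi1abc against WT (log2 change 0.35 ± 0.10, adjusted p = 0.0103) and against the double mutant (log2 change 0.38 ± 0.10, adjusted p = 0.0112). Both calls were lost without atbmi1abc replicate 2 (0.0589 and 0.0631) and, for the second, without atbmi1ab_strong replicate 2 (0.0661). CDKB2;2 (AT1G20930), identical to it at 86.5% of 934 aligned coding bases, fell in atbmi1abc (log2 change -0.40 ± 0.12, adjusted p = 0.0159), a call lost without WT replicate 2 or atbmi1abc replicate 1 (0.0983 and 0.0750). These 2 kinases act from the gap before mitosis into mitosis and stood between 7.66 and 21.7 FPKM in all libraries.

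**Figure D4:**
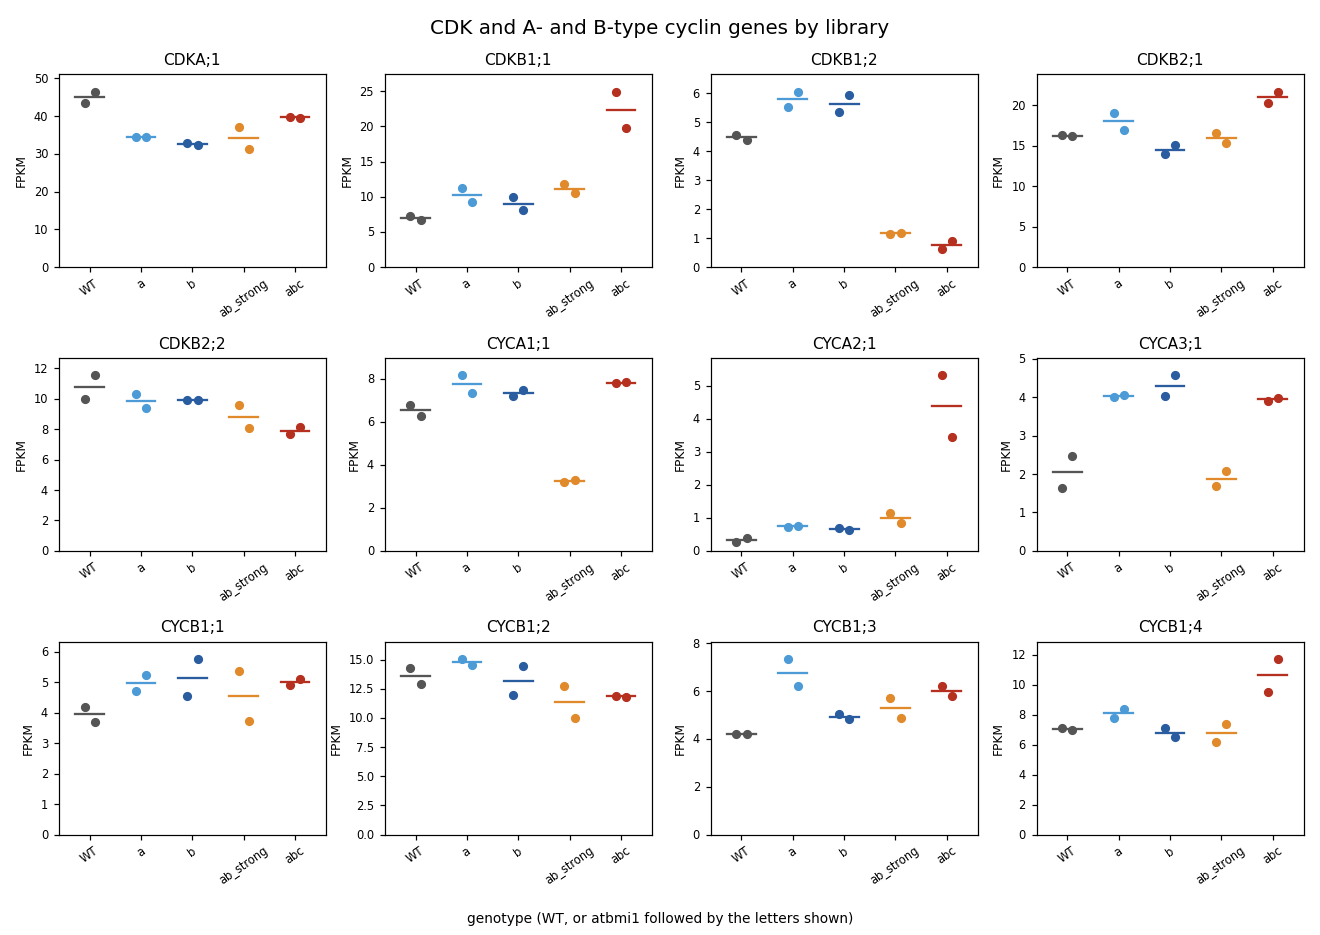
FPKM (y axis, linear from 0) of the 5 CDK genes and of A- and B-type cyclin genes in each library of the 5 genotypes (x axis), with points for the 2 libraries and a bar for their mean. CDKB1;1 is highest in atbmi1abc while CDKB1;2 is lowest there, and CYCA1;1 has its low point in atbmi1ab_strong.

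Among the inhibitors, the KRP genes moved in opposite directions in the double and triple mutants. KRP6 (AT3G19150) measured 10.4 and 8.16 FPKM in WT, 9.95 and 18.2 in atbmi1a, 15.5 and 15.4 in atbmi1b, 63.5 and 69.3 in atbmi1ab_strong, and 38.4 and 48.8 in atbmi1abc. KRP1 (AT2G23430), whose product is known to restrain division and endoreduplication, measured 10.9 and 15.9 FPKM in WT, 16.0 and 19.3 in atbmi1a, 21.5 and 22.2 in atbmi1b, 1.20 and 2.49 in atbmi1ab_strong, and 2.75 and 3.22 in atbmi1abc. KRP6 libraries of the double and triple mutants lay above, and KRP1 libraries below, every library of the other genotypes. KRP6 rose in atbmi1ab_strong (log2 change 2.72 ± 0.25, adjusted p = 3.78e-05) and atbmi1abc (log2 change 2.12 ± 0.25, adjusted p = 0.000106). KRP1 fell in both (log2 change -2.36 ± 0.24, adjusted p = 7.47e-05 and log2 change -1.83 ± 0.24, adjusted p = 0.000214), and these calls of KRP6 and KRP1 held under every alternative run. In atbmi1b KRP1 and KRP6 were not called in the fit reported (log2 change 0.69 each, adjusted p = 0.0511 and 0.0531). Both were called higher there with a mean of at least 5 FPKM, equal sums and the compared groups alone (adjusted p = 0.0162 to 0.0489). For KRP1 this also held under median-ratio scaling and the replicate block (0.0492 and 0.0159). Summed over the 7 KRP genes the level per library stayed between 68.75 and 106.5 FPKM. KRP6 made up 15.05% and 9.703% of that sum in the WT libraries, 64.23% and 65.13% in atbmi1ab_strong, and 43.6% and 52.06% in atbmi1abc. KRP4 made up 42.72% and 48.15% in WT, 11.89% and 10.99% in atbmi1ab_strong, and 13.95% and 16.08% in atbmi1abc.

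KRP4 (AT2G32710), known to be shared between daughter cells with the DNA as a measure of cell size, measured 29.4 and 40.5 FPKM in WT, 24.6 and 16.9 in atbmi1a, 15.6 and 14.5 in atbmi1b, 11.8 and 11.7 in atbmi1ab_strong, and 12.3 and 15.1 in atbmi1abc. It fell in every mutant, with log2 changes of -0.73 in atbmi1a, -1.15 in atbmi1b, -1.48 in atbmi1ab_strong and -1.28 in atbmi1abc (limma adjusted p = 0.0272, 0.00295, 0.000383 and 0.000617). The atbmi1a call was lost without WT replicate 2 or atbmi1a replicate 2 (0.158 and 0.109). KRP7 (AT1G49620) was instead high in the single mutants, at 1.07 and 0.955 FPKM in WT, 8.14 and 7.16 in atbmi1a, 5.85 and 6.10 in atbmi1b, 1.51 and 1.09 in atbmi1ab_strong, and 2.31 and 1.16 in atbmi1abc. It rose in atbmi1a (log2 change 2.10 ± 0.21, adjusted p = 0.000547) and atbmi1b (log2 change 1.79 ± 0.21, adjusted p = 0.000399), its libraries there lying above all others. Against the single mutants it was lower in the double (-1.76, adjusted p = 6.44e-05) and in the triple mutant (-1.54, 0.000101).

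KRP5 (AT3G24810), an inhibitor known from root and hypocotyl cells that endoreduplicate, measured 2.35 and 2.17 FPKM in WT, 3.90 and 3.32 in atbmi1a, 8.93 and 6.49 in atbmi1b, 4.90 and 6.18 in atbmi1ab_strong, and 12.9 and 8.74 in atbmi1abc. It rose in atbmi1b (log2 change 1.41 ± 0.21, adjusted p = 0.00133), atbmi1ab_strong (log2 change 1.00 ± 0.21, adjusted p = 0.00375) and atbmi1abc (log2 change 1.83 ± 0.21, adjusted p = 9.24e-05). Its rise from the double to the triple mutant (log2 change 0.84 ± 0.21, adjusted p = 0.0107) was lost without replicate 1 of either (adjusted p = 0.0701 and 0.0647). KRP3 (AT5G48820) rose in atbmi1b (log2 change 1.22 ± 0.25, adjusted p = 0.00530), at 9.77 and 7.18 FPKM against 2.47 and 3.69 in WT, and overlapped WT in the other mutants. KRP2 (AT3G50630) was not called in any comparison, at 11.7 to 17.9 FPKM, except as higher in atbmi1b under equal sums (0.0156). SIM (AT5G04470), an inhibitor known for starting endoreduplication in trichomes, measured 29.0 and 33.9 FPKM in WT, 20.3 and 12.4 in atbmi1a, 16.6 and 16.0 in atbmi1b, 20.5 and 15.9 in atbmi1ab_strong, and 7.36 and 12.1 in atbmi1abc. It fell in all 4 mutants, most in atbmi1abc (log2 change -1.63 ± 0.27, adjusted p = 0.000773), and from the double to the triple mutant (log2 change -0.86 ± 0.27, adjusted p = 0.0262). In atbmi1a, atbmi1b and atbmi1ab_strong, at -0.94, -0.90 and -0.76, the SIM calls were lost without 3, 4 and 4 of the 4 libraries taken out in turn (-0.59 to -1.0). The SIM call between triple and double mutant was lost without replicate 1 of either (-0.69 and -0.54). The compared groups alone lost the atbmi1a call and that between triple and double mutant (adjusted p = 0.0790 and 0.0531). Equal sums and the replicate block lost the atbmi1ab_strong call (0.0695 and 0.0547). WEE1 (AT1G02970), a kinase known for halting the cycle after DNA damage, measured 2.09 and 1.23 FPKM in WT, 2.57 and 2.36 in atbmi1a, 2.60 and 2.63 in atbmi1b, 3.33 and 3.54 in atbmi1ab_strong, and 10.1 and 8.74 in atbmi1abc. Its atbmi1abc libraries lay above all others. It rose in atbmi1abc (log2 change 1.99 ± 0.17, adjusted p = 1.6e-05), in atbmi1ab_strong (log2 change 0.76 ± 0.17, adjusted p = 0.00479) and from the double to the triple mutant (log2 change 1.23 ± 0.17, adjusted p = 0.000637).

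**Figure D5:**
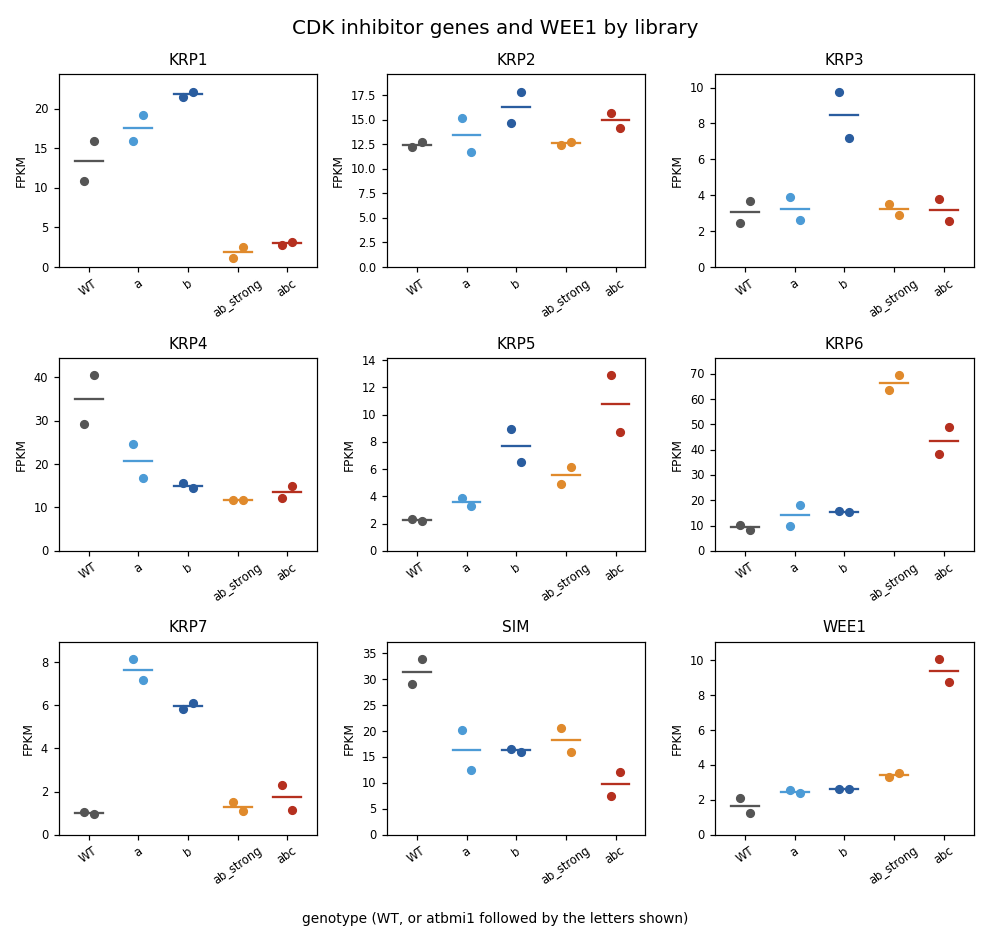
FPKM (y axis, linear from 0) of the 7 KRP genes, SIM and WEE1 in each library of the 5 genotypes (x axis), with points for the 2 libraries and a bar for their mean. KRP6 is high and KRP1 low in atbmi1ab_strong and atbmi1abc, KRP7 is high in the single mutants, and WEE1 is highest in atbmi1abc.

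Related cell cycle genes outside the 50 were read from 6 lists with 63 genes, 61 of them tested. In atbmi1a 15 rose and 2 fell, in atbmi1b 21 and 3, in atbmi1ab_strong 8 and 5, in atbmi1abc 34 and 5, and between triple and double mutant 29 and 3. The share called against WT was below that of all loci in each mutant, at 27.9% beside 35.3%, 39.3% beside 45.4%, 21.3% beside 64.4% and 63.9% beside 74.0%. Between triple and double mutant it was 52.5% beside 57.3%. Of 12 mitosis and cytokinesis genes, 5 rose in atbmi1a (41.7%), 3 in atbmi1b (25%), 2 in atbmi1ab_strong (16.7%) and 7 in atbmi1abc (58.3%), and none fell. AUR2, an Aurora kinase, rose in the double (log2 change 0.60 ± 0.12, adjusted p = 0.00287) and the triple mutant (log2 change 0.76 ± 0.12, adjusted p = 0.000585). KN, the syntaxin of the cell plate, rose in the triple mutant (log2 change 0.74 ± 0.10, adjusted p = 0.000250). Of 9 MYB3R, DP and DEL factors, 1 rose in atbmi1ab_strong (11.1%) and 3 in atbmi1abc (33.3%), beside 64.4% and 74.0% of all loci called. MYB3R4, an activator of mitotic genes, rose in both (log2 change 0.51 ± 0.15, adjusted p = 0.0190 and log2 change 0.88 ± 0.15, adjusted p = 0.000962). The E2F partner DPA rose in the triple mutant (log2 change 0.62 ± 0.12, adjusted p = 0.00144). The MYB3R4 call in the double mutant was lost without WT replicate 2 or atbmi1ab_strong replicate 2 (adjusted p = 0.115 and 0.101).

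Of 6 genes of the anaphase-promoting complex and the endocycle, HBT, a subunit of that complex, fell in atbmi1ab_strong (log2 change -0.50 ± 0.10, adjusted p = 0.00340) and atbmi1abc (log2 change -0.31 ± 0.10, adjusted p = 0.0274). CCS52A1, its endocycle activator, rose in atbmi1abc (log2 change 0.50 ± 0.14, adjusted p = 0.0109). The atbmi1abc calls were lost for HBT without WT replicate 1 or either atbmi1abc library (adjusted p = 0.0611 to 0.132) and for CCS52A1 without WT replicate 2 (0.0668). Of 7 SIM-related inhibitors, 2 rose in atbmi1ab_strong (28.6% called), and 4 rose and 1 fell in atbmi1abc (71.4%). The shares of all loci called were 64.4% and 74.0%. A gene of this list, at 0 FPKM in WT, passed the filter only through its levels in these mutants. SMR1 rose in atbmi1abc (log2 change 0.87 ± 0.22, limma adjusted p = 0.00689), a call lost without WT replicate 1. Of 7 CDK-activating genes, 2 rose and 2 fell in atbmi1ab_strong (57.1% called, beside 64.4% of all loci). In atbmi1abc 4 rose and 3 fell (100%, beside 74.0%). CYCH;1, the cyclin of the CDK-activating kinase, rose in atbmi1abc (log2 change 1.4 ± 0.10, adjusted p = 7.4e-06). CDKF;1, which phosphorylates that kinase, fell in both (log2 change -0.72 ± 0.09, adjusted p = 0.000220 and log2 change -0.63 ± 0.09, adjusted p = 0.000324), and CKS1, a CDK-binding subunit, fell in atbmi1ab_strong (log2 change -0.92 ± 0.12, adjusted p = 0.000282). Of the 50 genes, 15 have an annotated span that overlaps another gene, CDKB1;1, CDKB1;2, CYCD3;1, CYCD3;2, KRP4, SIM, RBR, E2FA, PCNA2 and MCM7 among them, and their values can hold reads of that neighbour.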

How the data were processed

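RNA from seedlings was purified with a Qiagen kit before Illumina library construction, per the labels' protocols. The authors' tools were FastQC, TopHat, Cufflinks and Cuffdiff on build TAIR10, per the submitters' processing notes; their versions and options, and whether strand was used, are not given here. The deposited values were taken as FPKM from these tools and from the values, since the headers do not name a unit, and depth in reads is unknown. The commonest ratio between low values of the same locus, read as steps of single fragments, put the libraries at 0.824 to 1.36 times the depth of WT replicate 1. Each locus with a mean of 1 FPKM or more was modelled as log2(FPKM + 1) by limma 3.58.1 (eBayes with trend, R 4.3.3), all 10 libraries together and 1 coefficient for each genotype, leaving 5 residual degrees of freedom. The code was tested on simulated data first. P-values were Benjamini-Hochberg adjusted over the 19460 loci and called under 0.05. The 50 members, the lists of related and marker genes and the tests were chosen with earlier results of these data known. Any member may be named. From each related list, up to 2 called genes with a symbol and the smallest adjusted p in atbmi1ab_strong and atbmi1abc were named, and the 3 targeted genes. Names and windows of 250 bases before the gene start come from RefSeq TAIR10.1, which matched 26177 of 27086 loci and all 50 members. Where a group of 2 libraries loses 1, the lone library is assumed to vary like the other groups. Alternatives were other scalings, filters, a pseudocount of 0.1, a replicate term, the compared groups alone, single mutants as the reference and leaving out each library. No 2 libraries held identical values.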

Additional observations from a re-analysis of the deposited data

How the results depend on the processing

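Precision is limited by 2 libraries a group and an unknown read depth. With each library left out in turn, the counts of cell cycle genes higher and lower ranged from 4 to 11 and 0 to 3 in atbmi1a, 13 to 15 and 2 to 5 in atbmi1b, 5 to 8 and 11 to 11 in atbmi1ab_strong, 22 to 24 and 8 to 9 in atbmi1abc, and 16 to 24 and 0 to 3 between triple and double mutant. A mean of at least 5 FPKM, which tests fewer genes, left 4 higher in atbmi1a and 4 in atbmi1ab_strong. Fitting only the compared groups left 2 higher in atbmi1a, CYCD6;1 and KRP7, and 0 lower. Equal sums without organelle loci left 2 lower in atbmi1b, and between triple and double mutant 4 were lower with equal sums or median-ratio scaling and 1 with quantile normalization. All loci split into 4437 higher and 2338 lower (atbmi1a), 5676 and 3072 (atbmi1b) and 7477 and 4938 (atbmi1ab_strong) under equal sums, against 3299 and 3575, 4148 and 4689, and 6193 and 6341 as reported. Between triple and double mutant they split into 4977 and 5463 (median-ratio), 7633 and 4288 (quantile) and 4677 and 5421 (equal sums), against 6256 and 4904.

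Over all tested loci, deviations of same-numbered libraries correlated at -0.23 to 0.12, over 0.1 in 2 of 10 pairs of genotypes. This correlation does not speak for single genes. For MCM2, MCM3, MCM4 and MCM5, replicate 1 was the higher library in every genotype. With the replicate block, 10 genes were higher and 3 lower in atbmi1a, 17 and 4 in atbmi1b, 10 and 12 in atbmi1ab_strong, 24 and 9 in atbmi1abc, and 24 and 2 between triple and double mutant.

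Set against the 4 single-mutant libraries instead of WT, 3 genes were higher and 22 lower in atbmi1ab_strong, and 16 and 10 in atbmi1abc. The cause was not tested. Turns of sign are listed only for genes called with either reference. MCM3, called with neither in atbmi1ab_strong, is therefore not listed there. The sign turned in atbmi1ab_strong for CYCD6;1 (-0.37), CDKA;1 (0.024), KRP3 (-0.57), KRP7 (-1.76), SIM (0.16), E2FA (-0.59), RBR (-0.028), PCNA1 (-0.81), MCM2 (-0.59), MCM4 (-0.52), MCM5 (-0.84), MCM6 (-0.59), MCM7 (-0.74), RNR2A (-0.18), CDKF;1 (0.085), FAS2 (-0.51), CYCH;1 (-0.56) and AtBMI1A (-0.76). In atbmi1abc it turned for CYCA3;1 (-0.062), CDKA;1 (0.24), KRP3 (-0.61), KRP7 (-1.54), E2FA (-0.079), PCNA1 (-0.057), RNR2A (-0.49), CDKF;1 (0.17), AtBMI1A (-0.32) and AtBMI1B (0.59). Other calls were lost with this reference without a turn of sign. In atbmi1ab_strong these were CYCA2;1 (0.23), CYCD4;1 (0.44), CDKB1;1 (0.20), KRP5 (0.047), WEE1 (0.33), AUR2 (0.20), MYB3R4 (0.28) and AtBMI1B (-0.18). In atbmi1abc they were CYCA2;3 (-0.16), CYCB1;3 (0.043), KRP4 (-0.34), E2FC (0.20), MCM4 (0.37), MCM5 (0.024), MCM6 (0.35), MCM7 (0.17), HBT (-0.20) and SMR1 (0.44). Calls of single cell cycle genes held under every alternative run for 2 of 10 in atbmi1a, 13 of 18 in atbmi1b, 12 of 20 in atbmi1ab_strong, 19 of 33 in atbmi1abc and 15 of 25 between triple and double mutant.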
